A study of Mus musculus with 6 samples.

Results

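Snai1, Evx1, Kdr and Fgf8 were lower and Mixl1 was higher in mouse embryonic stem cells labelled Zbtb24 knockout than in control cells. These are 5 of 10 genes of the primitive streak and early mesoderm examined here: T, Mixl1, Gsc, Mesp1, Evx1, Fgf8, Snai1, Kdr, Cer1 and Tbx6. The genes were taken by symbol from the 43309 genes of a table of fragment counts, and all 10 were found there. A test was made of the 16823 genes that reached 10 counts in any library, which 8 of the 10 did, all but Mesp1 and Cer1. Of all genes tested, 69.5% were called, so 5 called genes of 8 are near the background. The call of Fgf8 held in 11 of 16 other settings and was lost with DESeq2, at a stricter FDR and without some single lines.

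The libraries were TruSeq Stranded mRNA libraries of polyA RNA from embryonic stem cell lines of strain J1 (129SV), 3 lines of genotype Zbtb24 wild-type (2lox/+) as controls and 3 lines labelled Zbtb24 knockout (1lox/1lox). The study describes the lines of a group as separately derived clones, with 1 library from each line. All were grown in medium with serum, on gelatin and with no feeder layer, and the labels name no treatment that directs cells towards mesoderm. Both groups carry a lox-modified Zbtb24 allele, which in the controls lies beside an unmodified one. Zbtb24 itself, a zinc finger protein gene, did not bear out the label: its level was 18.2 ± 0.415 cpm (the counts relative to library size with TMM scaling; SD, n = 3) in the controls and 36.1 ± 1.88 cpm in the lines labelled knockout (log2 difference 0.99, edgeR adjusted p = 4.3e-23). A count over the whole gene does not show whether an exon is missing, and the groups are therefore named by their labels below.

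The primitive streak is the site in the gastrulating embryo where epiblast cells leave the epithelium and become mesoderm and endoderm. Nodal, Wnt and Fgf signals start and maintain it, T-box and homeobox transcription factors set the identity of its cells, and Snai1 represses the epithelial cadherin gene so that cells can move. Mouse embryonic stem cells kept in serum resemble the earlier, pluripotent epiblast and hold only traces of streak transcripts, which some cells of such cultures express.

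The levels were low. The 10 genes together took 327 to 352 counts of a control library and 166 to 214 counts of a library labelled knockout, from totals of 26987179 to 27754105 and 25042261 to 28838924 counts. By mean cpm, which sets the precision and is not a level per length, the 8 genes tested exceeded 7.33% (Fgf8) to 30.4% (Kdr) of all genes tested. In bulk RNA, fewer cells that express a gene and less RNA of it per cell cannot be told apart.

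Snai1 and Evx1 had the largest falls of the 8 genes tested, and T is the gene by which the streak is usually recognised, so the 250 bases before their start sites are given here from RefSeq (GRCm38.p6), 5′ to 3′ on the strand of the gene. The capitals mark matches to 4 short motifs, each searched on both strands. Snail proteins bind the E-box CAGGTG. The T-box factors bind sites that hold TCACACC. The Tcf/Lef factors of the Wnt pathway bind CTTTGA. The TATA box was searched as TATAAA. The Snai1 window is chr2:167537945-167538194, the Evx1 window chr6:52313248-52313497 and the T window chr17:8434173-8434422, all on the plus strand.
Snai1: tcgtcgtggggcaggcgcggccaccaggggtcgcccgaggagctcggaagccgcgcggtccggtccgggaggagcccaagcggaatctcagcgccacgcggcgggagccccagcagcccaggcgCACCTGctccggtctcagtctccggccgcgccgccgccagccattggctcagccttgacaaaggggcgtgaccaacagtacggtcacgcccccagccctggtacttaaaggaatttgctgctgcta
Evx1: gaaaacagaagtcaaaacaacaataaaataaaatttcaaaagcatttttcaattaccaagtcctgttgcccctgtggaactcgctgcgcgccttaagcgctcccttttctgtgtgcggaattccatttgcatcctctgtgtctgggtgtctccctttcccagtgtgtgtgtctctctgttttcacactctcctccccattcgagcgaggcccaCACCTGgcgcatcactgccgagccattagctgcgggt
T: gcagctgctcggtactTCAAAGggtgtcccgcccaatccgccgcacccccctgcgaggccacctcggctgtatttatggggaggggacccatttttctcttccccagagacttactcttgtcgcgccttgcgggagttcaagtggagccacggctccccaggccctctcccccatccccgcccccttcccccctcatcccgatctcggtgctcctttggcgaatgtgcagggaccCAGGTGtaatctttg

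The promoter table held 8 of the 10 genes, which leaves out Mixl1 and Fgf8. The E-box lay in 5 of these 8 windows (T, Mesp1, Evx1, Snai1 and Cer1), against 17.2% of the 32851 promoter windows of the same length. In Snai1 it began 126 bases before the start site, in Evx1 37 bases before it and in T 15 bases before it. The Tcf/Lef site was found in T and Mesp1, and in 13.8% of all windows. The Mesp1 window, chr7:79793591-79793840 on the minus strand, overlaps the gene as placed below, which ends at 79793788. The E-box and Tcf/Lef matches of Mesp1 lie inside those gene coordinates, so they are upstream only of the RefSeq start site. The letters of the TATA box were found in Gsc, from 164 bases before the start, in Tbx6, from 43 bases before it, and in 12.4% of all windows. The T-box site was found in none of the 8, and in 3.33% of all windows, and the Kdr window held none of the 4 motifs. A match of letters is a description of the sequence and was not set against any binding data.

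Snai1 encodes a zinc finger repressor that drives cells out of an epithelium. The gene (ENSMUSG00000042821) lies on mm10 chr2 from 167538195 to 167542814. Control lines gave 113, 97 and 114 counts of it, and lines labelled knockout 21, 19 and 21. The groups lay far apart and each was tight. Its level was 3.90 ± 0.327 cpm in the controls and 0.773 ± 0.0302 cpm in the lines labelled knockout (SD, n = 3). This was a 5.02-fold lower level (log2 difference -2.33, SE 0.17, adjusted p = 5.0e-17, edgeR quasi-likelihood test with Benjamini-Hochberg adjustment), the largest change among the 8 genes tested.

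**Figure D1:**
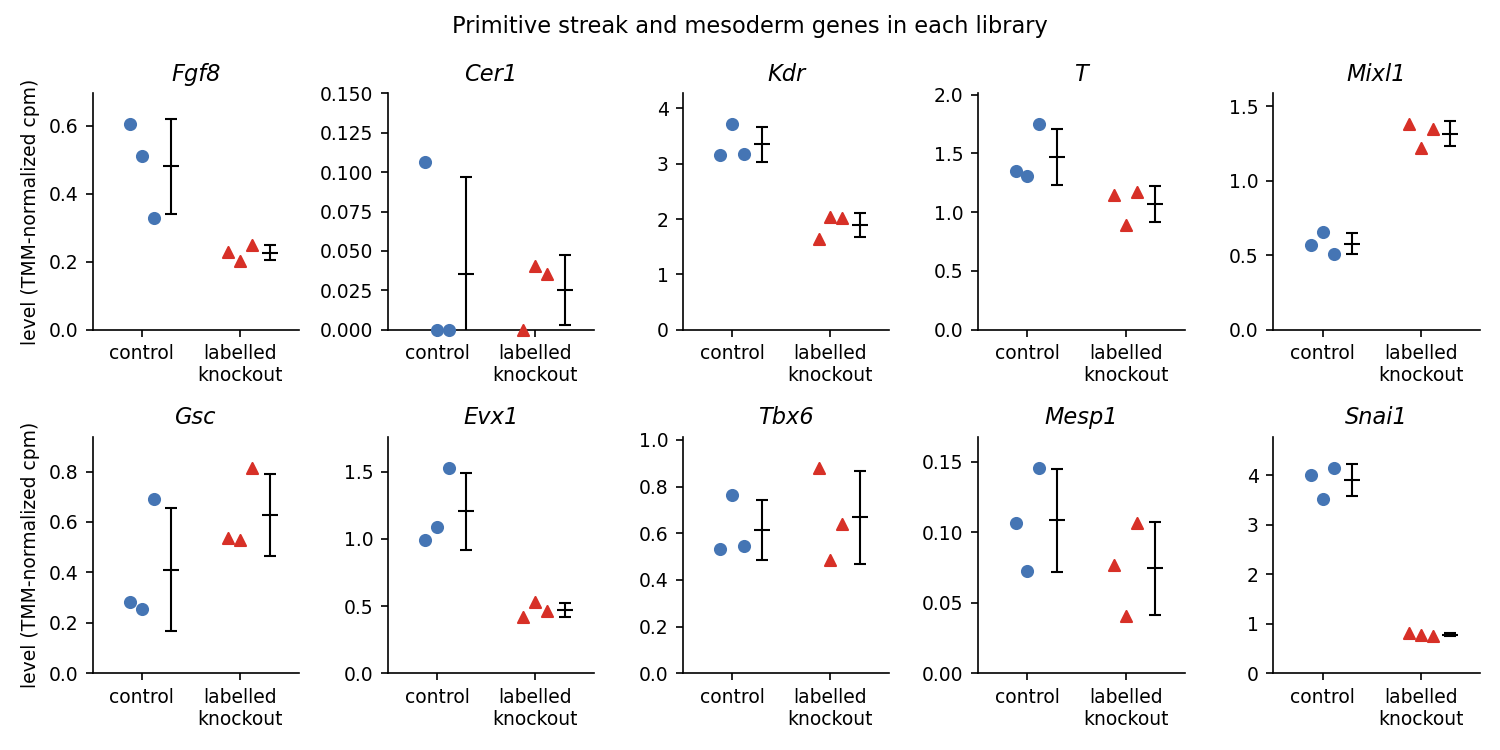
Level of each of the 10 primitive streak and mesoderm genes in cpm (scaled by TMM, vertical axes start at 0 and differ between panels) in the 3 control lines and the 3 lines labelled knockout. Points are lines, horizontal bars are means and vertical bars the SD, cut at 0 where the SD exceeds the mean. Snai1, Evx1, Kdr, Fgf8 and T lay lower in every line labelled knockout than in any control line, and Mixl1 higher.

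The secreted factors were close to the limit of detection. Fgf8, a growth factor that streak cells secrete and need in order to move away, lies on chr19 from 45736798 to 45742915 (ENSMUSG00000025219). It had 17, 14 and 9 counts in the controls and 6, 5 and 7 in the lines labelled knockout. The groups did not overlap, but the third control, with an exact Poisson interval of 4.12 to 17.1 counts, was within counting error of every line labelled knockout. Its level fell from 0.480 ± 0.140 to 0.227 ± 0.0226 cpm (log2 difference -1.06, SE 0.42, edgeR adjusted p = 0.0219). That call was lost with DESeq2 (adjusted p = 0.0845) and without the first control line (log2 difference -0.87, adjusted p = 0.113), the second control line (adjusted p = 0.0535) or the second line labelled knockout (adjusted p = 0.0609).

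Cer1 encodes a secreted antagonist of Nodal, Wnt and BMP signals, made by the anterior visceral endoderm and the early definitive endoderm. It lies on chr4 from 82881751 to 82885148 (ENSMUSG00000038192). It had 3, 0 and 0 counts in the controls and 0, 1 and 1 in the lines labelled knockout. Both groups were at or under 3 counts in every library, and no difference could be seen at this depth.

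Kdr encodes the VEGF receptor that marks mesoderm with blood and vessel potential. The gene (ENSMUSG00000062960) lies on chr5 from 75932827 to 75978458. It had 89, 102 and 87 counts in the controls and 43, 50 and 57 in the lines labelled knockout. Every line labelled knockout was below every control. Its level was 3.35 ± 0.315 cpm in the controls and 1.90 ± 0.219 cpm in the lines labelled knockout, 1.76-fold lower (log2 difference -0.82, SE 0.14, edgeR adjusted p = 2.4e-06).

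The 2 T-box factors tested did not pass the test. T (brachyury), which is expressed throughout the streak and is required for posterior mesoderm, lies on chr17 from 8434423 to 8442496 (ENSMUSG00000062327). It had 38, 36 and 48 counts in the controls and 30, 22 and 33 in the lines labelled knockout. The groups did not overlap, with the highest line labelled knockout only a few counts below the lowest control. Its level was 1.47 ± 0.242 against 1.07 ± 0.153 cpm (log2 difference -0.45, SE 0.21, edgeR adjusted p = 0.0508). T lay at the threshold, and several other settings placed it on the other side, such as leaving out the second control line (edgeR adjusted p = 0.0409). Without the third control line it was further from passing (edgeR adjusted p = 0.252).

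Tbx6, which directs paraxial mesoderm away from a neural fate, lies on chr7 from 126781483 to 126785560 (ENSMUSG00000030699). It had 15, 21 and 15 counts in the controls and 23, 12 and 18 in the lines labelled knockout. The groups overlapped. The log2 difference was 0.13 (SE 0.30, interval -0.46 to 0.71, edgeR adjusted p = 0.717), and it was -0.11 without the first line labelled knockout, so no direction can be given.

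The homeobox factors did not move together. Mixl1, expressed in the streak and needed for definitive endoderm, had 16, 18 and 14 counts in the controls and 36, 30 and 38 in the lines labelled knockout. Every line labelled knockout had more Mixl1 than any control. Its level rose 2.27-fold, from 0.578 ± 0.0730 to 1.31 ± 0.0845 cpm (log2 difference 1.18, SE 0.24, edgeR adjusted p = 3.0e-05). The gene (ENSMUSG00000026497) lies on chr1 from 180693043 to 180697034. Genes of that chromosome were mostly higher in the lines labelled knockout: the median log2 difference of its 1085 tested genes was 0.49 and 74.8% were above 0. The median of the 26 other tested genes within 1 Mb of Mixl1 was 0.39. Mixl1 stood 0.70 above the median of the chromosome, and the part of the chromosome in its rise was not tested.

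Evx1, a homeobox factor of the posterior streak, lies on chr6 from 52313498 to 52318378 (ENSMUSG00000005503). It had 28, 30 and 42 counts in the controls and 11, 13 and 13 in the lines labelled knockout. The control lines varied more than the others, but the groups were well separated. Its level fell 2.55-fold, from 1.21 ± 0.285 to 0.470 ± 0.0540 cpm (log2 difference -1.35, SE 0.27, edgeR adjusted p = 2.1e-05). Its antisense neighbour Evx1os overlaps it on the other strand, was counted separately because the counting used the strand, and had 7, 14 and 8 counts against 2, 2 and 4.

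Gsc, the homeobox factor of the anterior streak and organizer, lies on chr12 from 104471209 to 104473330 (ENSMUSG00000021095). It had 8, 7 and 19 counts in the controls and 14, 13 and 23 in the lines labelled knockout. The groups overlapped through the third control line, which had more counts than the other 2 controls together. The log2 difference was 0.62 (SE 0.35, edgeR adjusted p = 0.114). Without the third control line it was 1.21 and passed the test (adjusted p = 0.0107), so that 1 library decided the call. Leaving out another line also moved the size, to 0.41 without the first control line, 0.38 without the second and 0.38 without the third line labelled knockout, with adjusted p from 0.351 to 0.436.

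Mesp1, a basic helix-loop-helix factor of the first cardiac and cranial mesoderm, lies on chr7 from 79792241 to 79793788 (ENSMUSG00000030544). It had 3, 2 and 4 counts in the controls and 2, 1 and 3 in the lines labelled knockout. The summed counts of 9 and 6 gave a ratio of 0.678, with an exact 95% interval of 0.199 to 2.13 that covers counting error only, so a difference was not detectable at this depth. Mesp2, its neighbour and nearest family member, had 175 counts over the controls and 165 over the lines labelled knockout, with a log2 difference of -0.01 (SE 0.16, adjusted p = 0.950).

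Of the 8 genes tested, 1 was called higher and 4 lower, and 3 were not called. These counts have to be read against a table in which most genes were called: 69.5% of all genes tested passed the threshold, 34.4% as higher and 35.2% as lower. Among the 5708 genes with a mean under 100 counts, which all 8 had, 54.7% passed, 20.3% as higher and 34.4% as lower. Groups that did not overlap were also common, 35.3% of all genes tested in the higher and 36.2% in the lower direction, where the 8 genes had 1 and 5. The median log2 difference of the 8 was -0.63, beside -0.00036 for all genes tested and -0.17 for those with a mean under 100 counts. At this threshold, the share of called genes among the 8 was near the background.

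**Figure D2:**
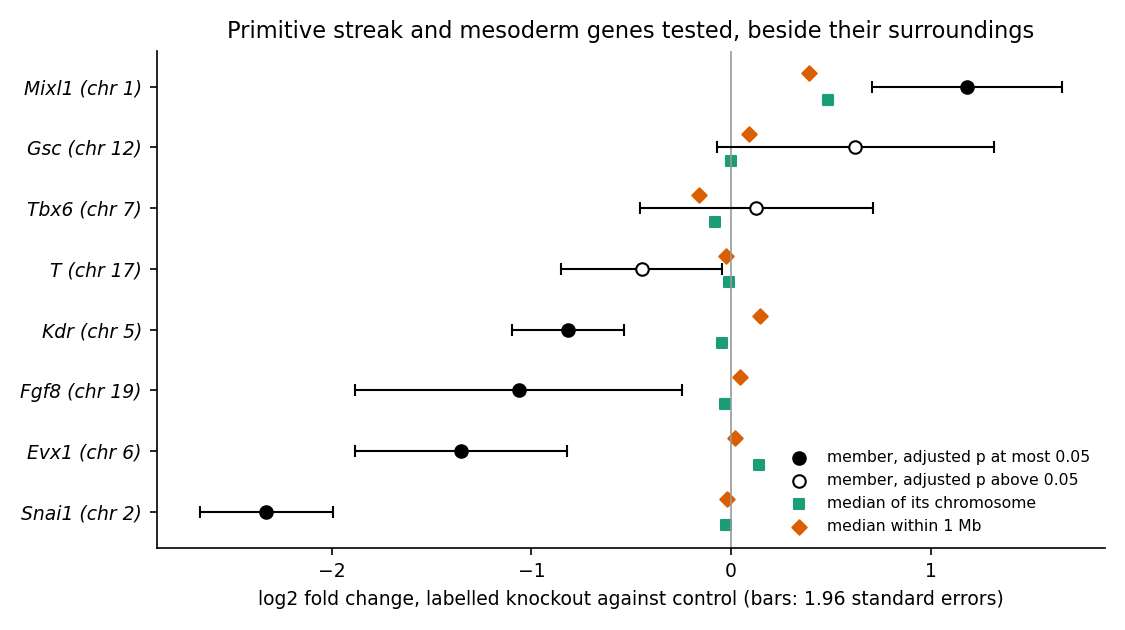
Log2 difference (labelled knockout minus control) of the 8 primitive streak and mesoderm genes tested, beside the median of the tested genes on the same chromosome and within 1 Mb. Bars are approximate 95% intervals, with a standard error derived from the F statistic of the edgeR test. Mixl1 is the gene whose surroundings are shifted most, with a chromosome median of 0.49, and the intervals of Gsc and Tbx6 span 0.

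Around the other 9 genes the shifts were smaller. The chromosome medians of the log2 difference ranged from -0.08 for chr7, which holds Mesp1 and Tbx6, to 0.14 for chr6, which holds Evx1. The medians within 1 Mb ranged from -0.16 around Tbx6 to 0.14 around Kdr and Cer1, and that around Snai1 was -0.02. Within 2 Mb the median around Cer1, which was not tested itself, was 0.30.

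The order of the genes by level per transcript length changed between the groups. Levels were set as cpm per kilobase of the longest transcript (FPKM). In the controls Snai1 led with 2.41 ± 0.202 FPKM, followed by T with 0.718 ± 0.118, Kdr with 0.565 ± 0.0532 and Evx1 with 0.419 ± 0.0990. Snai1 was above every other gene in every control line. Below Evx1 came Fgf8 (0.411 FPKM), Tbx6 (0.356), Gsc (0.324) and Mixl1 (0.252), and from Evx1 to Mixl1 each gene overlapped the next over the 3 lines. Mesp1 (0.0850 FPKM) and Cer1 (0.0204) were last.

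In the lines labelled knockout Mixl1 came first with 0.573 ± 0.0369 FPKM, ahead of T (0.523), Gsc (0.494), Snai1 (0.477 ± 0.0186), Tbx6 (0.387) and Kdr (0.321). Neighbours in this order could not be ranked firmly, since each overlapped the next over the 3 lines. Mixl1 was above Snai1, Tbx6 and Kdr in every line. Fgf8 (0.194 FPKM) and Evx1 (0.163) lay below Kdr in every line by this length, although Fgf8 overlapped Kdr when the union of exons was used as the length. Mesp1 (0.0584) and Cer1 (0.0146) remained last. In the order of means Mixl1 thus moved from place 8 to place 1, and Snai1 from place 1 to place 4. With the union of exons as the length, Mixl1 moved in the same way, Snai1 came to place 3 and T to place 4.

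**Figure D3:**
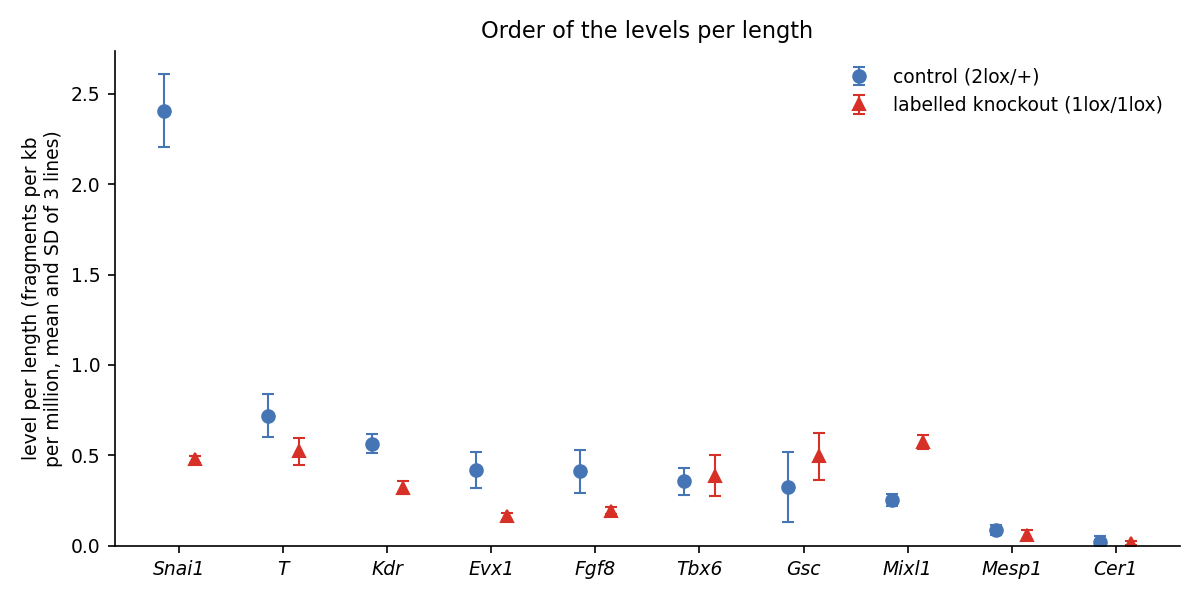
Level per transcript length (FPKM, mean and SD of 3 lines, axis from 0) of the 10 primitive streak and mesoderm genes in the control lines and the lines labelled knockout, ordered by the control mean. Snai1 stands apart at 2.41 FPKM in the controls and lies among the other factors, at 0.477 FPKM, in the lines labelled knockout.

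In the 7 related lists described next, 64.7% to 100% of the tested genes were called, beside 69.5% of all genes tested. Signals that induce the streak were called in both directions. Of 10 such genes, all tested, 7 were lower and 3 higher, with a median log2 difference of -0.60. Furin, a protease that processes the Nodal precursor, fell from 30.5 ± 1.87 to 13.9 ± 0.179 cpm (log2 difference -1.13). Tdgf1, the Nodal co-receptor and the highest of the list in cpm, rose from 695.3 ± 5.52 to 821.3 ± 18.4 cpm (log2 difference 0.24), and Gdf3, a Nodal-related ligand, rose by 0.25. Wnt3, the ligand needed to form the streak, had 221 counts over the 3 controls and 27 over the 3 lines labelled knockout (log2 difference -2.94, SE 0.24, adjusted p = 1.2e-15). Wnt8a had 109 and 17 (log2 difference -2.58), and Nodal itself was lower by less (log2 difference -0.59). Wnt3, Wnt8a and Nodal were named after their values were seen.

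Other transcription factors of the streak held 11 tested genes of 12, of which 7 were lower, 3 higher and 1 was not called, with a median of -0.91. Foxh1, which carries Smad proteins to Nodal targets, fell from 80.8 ± 1.70 to 29.04 ± 2.08 cpm (log2 difference -1.47). Eomes, a T-box factor that activates Mesp1, rose from 4.68 ± 0.141 to 6.21 ± 0.811 cpm (log2 difference 0.40, edgeR adjusted p = 0.00068). The other genes called higher, Nkx1-2 and Cdx1, rose by more but had too few counts for the naming rule. Nkx1-2 had 27 counts over the controls and 118 over the lines labelled knockout (log2 difference 2.19). Cdx1 had 31 and 101 (log2 difference 1.765). Both were named after their values were seen, beside 7 genes of the list called lower. Among other mesoderm genes, 17 of 22 were tested, of which 9 were lower, 2 higher and 6 not called, with a median of -0.90. Hand1, a factor of extraembryonic and lateral mesoderm, fell from 7.37 ± 0.703 to 0.828 ± 0.114 cpm (log2 difference -3.15). Tbx3, a T-box factor that embryonic stem cells also express in the naive state, rose from 47.2 ± 1.17 to 128.9 ± 3.29 cpm (log2 difference 1.45).

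Genes of the epithelial-mesenchymal transition, the change of cell shape that Snai1 drives, were all tested, with 8 of 13 lower, 4 higher and 1 not called (median -0.69). The list holds genes of both sides of this change. The epithelial genes Cdh1, Epcam, Crb3, Esrp1, Esrp2 and Ovol2 were all called lower. Snai2, Zeb1, Vim and Fn1 were called higher, Cdh2 and Zeb2 lower, and Twist1 was not called. Those other than Esrp1, Zeb1 and Fn1 were named after their values were seen. Esrp1, a splicing regulator of epithelial cells, fell from 85.2 ± 0.712 to 22.6 ± 0.675 cpm (log2 difference -1.92). Cdh1, the epithelial cadherin gene that Snai1 represses, was lower as well, at 486.5 ± 4.88 against 787.8 ± 7.94 cpm (log2 difference -0.70), and was named after its value was seen. Zeb1, a repressor that acts beside Snai1, rose from 7.32 ± 0.129 to 19.9 ± 1.38 cpm (log2 difference 1.44). Fn1, fibronectin, rose from 675.3 ± 22.2 to 1136.1 ± 16.0 cpm (log2 difference 0.75).

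Secreted antagonists of the streak signals, the group to which Cer1 belongs by function, had 9 tested genes of 10, with 6 lower, 1 higher and 2 not called (median -0.53). Fst, an activin antagonist, fell from 2.89 ± 0.210 to 0.973 ± 0.0720 cpm (log2 difference -1.56). Sfrp1, a Wnt antagonist, rose from 28.4 ± 0.195 to 77.1 ± 4.87 cpm (log2 difference 1.45). Lefty2, a Nodal antagonist and the highest of the list in cpm, was called at a log2 difference of -0.10 with groups that overlapped (208.6 ± 4.45 against 194.6 ± 8.77 cpm).

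Genes of the response to FGF, the pathway of Fgf8, were lower in 7, higher in 5 and not called in 1 of 13 (median -0.29). Fgfr2, an Fgf receptor, fell from 22.8 ± 0.404 to 6.02 ± 0.203 cpm (log2 difference -1.92). Etv4 and Etv5, transcription factors induced by Fgf signals, rose by 1.27 and 0.07 on the log2 scale. Genes of the VEGF receptors and endothelium, the group of Kdr, were lower in 9, higher in 3 and not called in 1 of 13 (median -0.29). Flt1, the other main VEGF receptor, fell from 6.82 ± 0.566 to 1.55 ± 0.418 cpm (log2 difference -2.14). Its ligand Vegfa rose from 11.1 ± 0.252 to 44.4 ± 2.96 cpm (log2 difference 2.00), and the co-receptor gene Nrp2 rose from 88.0 ± 0.496 to 167.7 ± 4.53 cpm (log2 difference 0.93).

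**Figure D4:**
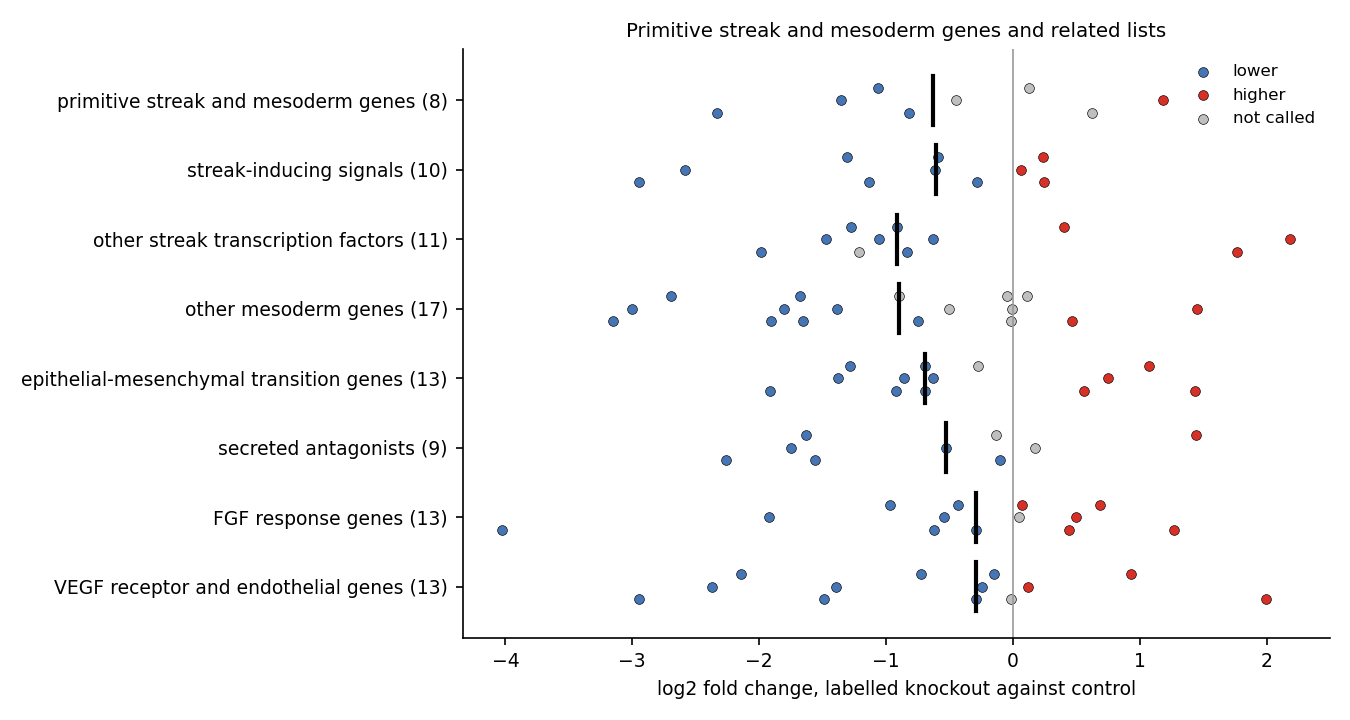
Log2 difference (labelled knockout minus control) of each tested primitive streak and mesoderm gene and each tested gene of 7 related pathway lists. Points are genes, coloured by the edgeR call, thick lines are list medians, and brackets give the genes tested. The list medians lie between -0.91 and -0.29, and every list holds genes called in each direction.

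Markers of other cell states moved beside these genes. Of 10 pluripotency genes, 9 were higher and 1 lower in the lines labelled knockout, and their summed level was 4573 to 4691 cpm in the controls and 6122 to 6188 cpm in the lines labelled knockout, so both groups held the defining transcripts of embryonic stem cells. Of 8 fibroblast genes, 7 were tested and 6 were lower, none was higher, and their summed level was 60.1 to 62.6 cpm against 12.4 to 13.0 cpm. Most of that sum in the controls was Col1a1, a collagen gene, at a mean of 41.1 cpm against 3.93 cpm in the lines labelled knockout. Lum, a defining fibroblast gene, had 0 counts in every library, which by the floor used here allows up to 3 counts in each library. The summed level of 8 primitive endoderm genes was 86.3 to 93.0 cpm against 130.7 to 140.4 cpm, with 2 higher, 2 lower and 4 not called. The rise of that sum was carried by Lama1, a laminin gene, at 76.1 ± 4.42 against 122.8 ± 3.79 cpm. Of 6 neural genes, 3 were tested, 2 higher and 1 lower, with a summed level of 12.5 to 13.0 against 20.9 to 22.1 cpm. The rise of that sum was carried by Olig2, at 0.060 ± 0.022 against 10.9 ± 0.523 cpm, while Pax6 fell from 11.5 ± 0.362 to 8.45 ± 0.197 cpm. Of 6 trophoblast genes, 2 were higher, 3 lower and 1 not called, with a summed level of 76.4 to 80.2 against 79.2 to 81.3 cpm. Col1a1, Lama1, Olig2 and Pax6 were named after their values were seen. The part of these cell states in the levels of Snai1, Evx1, Kdr, Fgf8 and Mixl1 was not tested.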

How the data were processed

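Total RNA (2 µg per library) was made into stranded polyA libraries with 8 cycles of PCR. The authors removed rRNA reads with Bowtie2 2.1.0, mapped the rest to mm10 with TopHat2 2.0.10 and counted fragments per GENCODE M4 gene with HTSeq 0.6.1, using strand and discarding fragments at multiple locations or in multiple genes. The deposited values are raw counts, and 0 of the count columns had no sample. Symbols, coordinates and lengths came from GENCODE M21 by Ensembl identifier (42425 of 43309 genes matched).

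Genes that reached 10 counts in 1 or more of the libraries were fitted in R 4.3.3 with edgeR 4.0.16 (TMM, glmQLFit, glmQLFTest, no covariate), and a gene was called at a Benjamini-Hochberg FDR of at most 0.05 over all 16823 genes. Log2 differences are labelled knockout minus control. A p-value sets the difference between the groups against counting error and the variation between lines. The fit estimates that variation with information shared over all genes tested. A p-value therefore does not measure the spread of the 3 lines of a group for 1 gene alone. The common variation between lines beyond counting error was 2.00% in this fit. At low counts, counting error is far larger than this. Intervals of counts and the floor of 3 counts cover counting error only, since no molecular identifiers were used. Alternatives were DESeq2 1.42.0, other scalings, filters, tests and thresholds, a block for the replicate number, and leaving out each line.

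The members and lists were chosen with earlier results of these data known. From each pathway list were named the called genes with the largest rise and the largest fall among those whose mean reached 50 counts and whose groups lay apart, and the gene with the highest mean cpm. A gene within 1 Mb of a member was named if it overlapped the member or was its nearest family member (Evx1os and Mesp2). Other genes are marked as named after their values were seen.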

Additional observations from a re-analysis of the deposited data

How the results depend on the processing

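Over 17 alternatives, Snai1, Evx1 and Mixl1 kept direction and call, with log2 differences without 1 line of -2.40 to -2.28, -1.48 to -1.15 and 1.10 to 1.28. Without 1 line, 11059 to 11304 genes of the whole table were called, 3 to 4 of the 8 streak and mesoderm genes were lower and 1 to 2 higher, Gsc being the second when the third control line was left out (log2 difference 0.38 to 1.21 over the lines left out). Without 1 line, Tbx6 ranged from -0.11, a reversal seen without the first line labelled knockout, to 0.31. With an absolute log2 difference of at least 1 also required, 2865 of the 16823 genes tested were called. Of the 8 streak and mesoderm genes tested, 1 was then called higher and 3 lower. In the lists, 4 of 10 streak-inducing signals, 6 of 11 other streak transcription factors and 9 of 17 other mesoderm genes were called. So were 5 of 13 epithelial-mesenchymal transition genes, 5 of 9 secreted antagonists, 3 of 13 FGF response genes and 6 of 13 VEGF receptor and endothelial genes. Whether these shares differ from that of the whole table was not tested. Kdr then fell under the threshold by its size, and Fgf8 was not called at an FDR of at most 0.01. With the replicate number as a block, 11801 genes were called and T passed (adjusted p = 0.0468). T also passed with RLE scaling, upper-quartile scaling, the likelihood ratio test and filterByExpr, which left Fgf8 untested. Same-numbered lines correlated at 0.0072, 0.072 and 0.015 in their deviations, so the numbers were not taken as a pairing.

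With the union of exons as the length, Kdr was at 0.371 FPKM in the controls and 0.210 in the lines labelled knockout, and Fgf8 at 0.168 in the latter, where Kdr and Fgf8 then overlapped. Evx1 then stood above Kdr in the controls. Within 2 Mb, the median log2 difference was 0.44 around Mixl1, 0.10 around Evx1, 0.082 around Fgf8, -0.084 around Snai1, 0.13 around Kdr, 0.30 around Cer1 and -0.14 around Tbx6. Counts under 20 in every library limit what can be said of Fgf8, Cer1 and Mesp1.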
